A study of Mus musculus with 21 samples.

Results

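The genes described here are the PGC-1 coactivators and the nuclear regulators that work with them in making mitochondria, measured in pancreatic islets of mice on 3 diets. They are Ppargc1a, Ppargc1b, Pprc1, Nrf1, Gabpa, Esrra, Esrrg, Tfam, Tfb2m and Polg, 10 of the 55536 genes in the count files. They were chosen by name for their known role, with earlier results of these data known. All 10 passed the filter of at least 10 reads over the samples. Islets came from CBA males on regular diet (RD), on high-fat diet (HFD), or on HFD with the AMPK activator O304 mixed into the food at 0.8 mg/g (HFD-O304), with 7 samples per group. Diets started at 10 weeks of age, and each sample was RNA from 150 islets of a pool of 5 mice, so that differences between single animals were averaged within a sample. Replicates 1 to 4 and replicates 5 to 7 carried separate runs of library numbers, and these sets are compared below. The label of HFD-O304 replicate 1 gave its diet as HFD in one field and as HFD-O304 in its title, and it was grouped by the title.

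PGC-1α (Ppargc1a) is a transcriptional coactivator that has no DNA-binding domain and acts on genes through the factors it docks on. Its partners include the nuclear respiratory factor NRF1, the ETS factor GABP and the estrogen-related receptors, which bind promoters of genes for the respiratory chain. NRF1 and GABP in turn drive Tfam, Tfb2m and other genes whose products enter mitochondria and copy or transcribe mitochondrial DNA. AMPK, the energy sensor that O304 activates, is known to act on PGC-1α both through its gene and by phosphorylating the protein. In β-cells, mitochondrial ATP production couples glucose to insulin release.

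The promoters of these genes are shown first, as the stretches on which the factors named above would act. RefSeq promoter windows (GRCm38.p6) of 300 bases, from 250 before to 50 after an annotated start, were at hand for 9 of the 10 genes in 13 windows, 2 for Nrf1 and 4 for Esrrg. Capitals mark a match, on either strand, to the ETS motif CCGGAAG that GABP binds or to the NRF1 motif GCGCNTGCG. Ppargc1a and Pprc1 differed most between the groups. The Esrra estimate in HFD against RD changed sign between the library sets, a change that did not pass the test described below. For Ppargc1a, Pprc1 and Esrra the 250 bases before the start are given. These stretches shared 1, 0 and 5 bases with GENCODE exons of their own gene. Of the 11 transcripts of Pprc1, 3 start within its window and 1 starts 11.4 kb further upstream. For Gabpa, Tfam and Polg, where 99, 236 and 89 of the 250 bases lay in annotated exons, the 30 bases around the ETS match are given.
Ppargc1a, upstream of the start site, chr5:51567726-51567975, minus strand: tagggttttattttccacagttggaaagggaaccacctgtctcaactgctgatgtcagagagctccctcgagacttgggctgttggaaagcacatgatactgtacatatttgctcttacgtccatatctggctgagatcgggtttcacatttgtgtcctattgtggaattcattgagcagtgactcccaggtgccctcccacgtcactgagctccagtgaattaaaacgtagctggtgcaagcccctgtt
Pprc1, upstream of the start site, chr19:46056289-46056538, plus strand: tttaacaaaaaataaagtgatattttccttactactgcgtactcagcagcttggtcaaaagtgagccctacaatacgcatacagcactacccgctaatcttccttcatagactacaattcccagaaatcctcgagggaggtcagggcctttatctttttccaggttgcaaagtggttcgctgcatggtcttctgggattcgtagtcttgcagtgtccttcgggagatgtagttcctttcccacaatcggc
Esrra, upstream of the start site, chr19:6921809-6922058, minus strand: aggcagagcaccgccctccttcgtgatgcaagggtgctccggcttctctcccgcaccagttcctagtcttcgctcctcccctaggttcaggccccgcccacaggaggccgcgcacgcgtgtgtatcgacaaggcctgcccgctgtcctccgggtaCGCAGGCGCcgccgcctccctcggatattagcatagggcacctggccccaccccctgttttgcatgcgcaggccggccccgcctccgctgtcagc
Gabpa, stretch around the match, chr16:84835020-84835049, plus strand: gagggtaagtgCTTCCGGgtccctcagcta
Tfam, stretch around the match, chr10:71238073-71238102, minus strand: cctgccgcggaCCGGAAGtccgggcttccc
Polg, stretch around the match, chr7:79466293-79466322, minus strand: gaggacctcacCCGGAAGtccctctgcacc

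Neither the Ppargc1a nor the Pprc1 window held one of the 5 motifs searched. The ETS motif stood in the windows of 3 genes, Gabpa, Tfam and Polg, against 8.86% of all 32851 promoter windows of this length. The NRF1 motif stood in those of Esrra and Tfb2m, against 6.31% of all windows. The ERR motif AAGGTCA (4.72% of all windows), the cAMP response element TGACGTCA (1.79%) and the E-box CACGTG (7.15%) were in none of the 13 windows, and no match overlapped another. The windows also differed in base composition. That of Ppargc1a was 48.7% G or C with 5 CpG, close to the median of all windows (52.7% and 7), while the upstream window of Nrf1 was 77.0% G or C with 43 CpG. A match describes letters only and is not evidence of binding. Only exact matches of the full motifs were counted, so shorter or variant sites would be missed. The Ppargc1a stretch, for example, holds acgtca, a part of the cAMP response element TGACGTCA.

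Levels of the 10 genes were compared in RD islets as normalized counts per kilobase of annotated exon. Tfam, which packages and transcribes mitochondrial DNA, had the highest level at 252 ± 15.4 per kilobase (SD, n = 7). Gabpa, the DNA-binding subunit of GABP, followed at 220 ± 24.4 and Pprc1, the third PGC-1 coactivator, at 170 ± 23.4 per kilobase. Esrra (114.97 ± 19.3), Polg (102.1 ± 6.75), Tfb2m (91.2 ± 16.8), Esrrg (78.7 ± 10.9) and Nrf1 (55.8 ± 2.98) were intermediate. Ppargc1a (27.2 ± 2.38) and Ppargc1b (13.7 ± 3.85) had the lowest levels per kilobase. Each gene's range overlapped that of its neighbour in this order from Tfam down to Esrrg, while Nrf1 (51.4 to 60.4), Ppargc1a (23.1 to 29.6) and Ppargc1b (9.71 to 20.9) stood clear of each other and of the genes above. The exon length of Polg (10742 bases over 18 transcripts) and of Nrf1 (10282 bases over 20 transcripts) sums all annotated forms, so their levels per kilobase depend on the annotation more than those of the others.

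Libraries held between 13809266 and 48922569 read pairs on genes, with a median of 38719302, the shallowest being HFD-O304 replicate 2. The 10 genes were read by 24 pairs (Ppargc1b) to 1935 pairs (Gabpa) in a single library, and Ppargc1a by 45 to 332. The β-cell markers, Ins1 and Ins2 among them, summed to between 278031 and 344303 CPM (counts scaled to the library total) in every library. Adipocyte and muscle markers had low sums. The 6 adipocyte markers summed to at most 2.9 CPM and the 9 muscle markers to at most 3.9 CPM, with Myh1 and Myh4 at 0 in all 21 libraries. The 21 acinar markers ranged from 148 to 10866 CPM, and adding their level to the model left the Ppargc1a differences at -0.86 and 0.98 on the log2 scale.

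Ppargc1a was lower in HFD islets than in RD islets, and in HFD-O304 islets its level was close to that in RD islets. Normalized counts in RD islets were 173, 168, 152 and 189 in replicates 1 to 4 and 181, 195 and 195 in replicates 5 to 7. In HFD islets they were 77.9, 86.7, 45.2 and 68.1 in replicates 1 to 4 and 115.2, 110.3 and 183 in replicates 5 to 7. In HFD-O304 islets they were 193, 214, 188 and 202, and then 174, 231 and 158. The RD and HFD-O304 values lay in 1 band from 152 to 231, whereas 6 of the 7 HFD values lay at or below 115.2 and HFD replicate 7 alone lay inside the band. The mean of the 7 RD samples was 179 ± 15.7, that of HFD 98.0 ± 44.4 and that of HFD-O304 194 ± 24.5 (± SD, here and below, over 7 samples), so that the spread was widest in HFD, at a coefficient of variation of 45.3% against 8.77% in RD and 12.6% in HFD-O304.

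Groups were compared with edgeR's quasi-likelihood test over all 27229 genes kept, and a gene was called at a Benjamini-Hochberg adjusted p under 0.01. In HFD against RD, Ppargc1a fell by 0.86 on the log2 scale (SE 0.18), a fold of 0.55 with a 95% interval of 0.424 to 0.713 (adjusted p = 0.00331). With only these 2 groups in the fit the difference was the same size and not called (adjusted p = 0.014). In the fit of all groups it was 1 of the 10 genes called in this comparison, where 3.54% of all genes were called, 2% higher and 1.54% lower. In HFD-O304 against HFD it rose by 0.98 (SE 0.18), a fold of 1.97 with an interval of 1.52 to 2.56 (adjusted p = 0.000243), and was again 1 of the 10 genes called, against 11.9% of all genes, 5.08% higher and 6.79% lower. In HFD-O304 against RD the difference was 0.12 (interval -0.25 to 0.48, adjusted p = 0.843), and 0 of the 10 genes were called, against 1.31% of all genes, 0.404% higher and 0.903% lower. At an unadjusted p under 0.05 the count there was also 0, and DESeq2 called 0. The comparisons share samples and are not independent of each other.

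**Figure D1:**
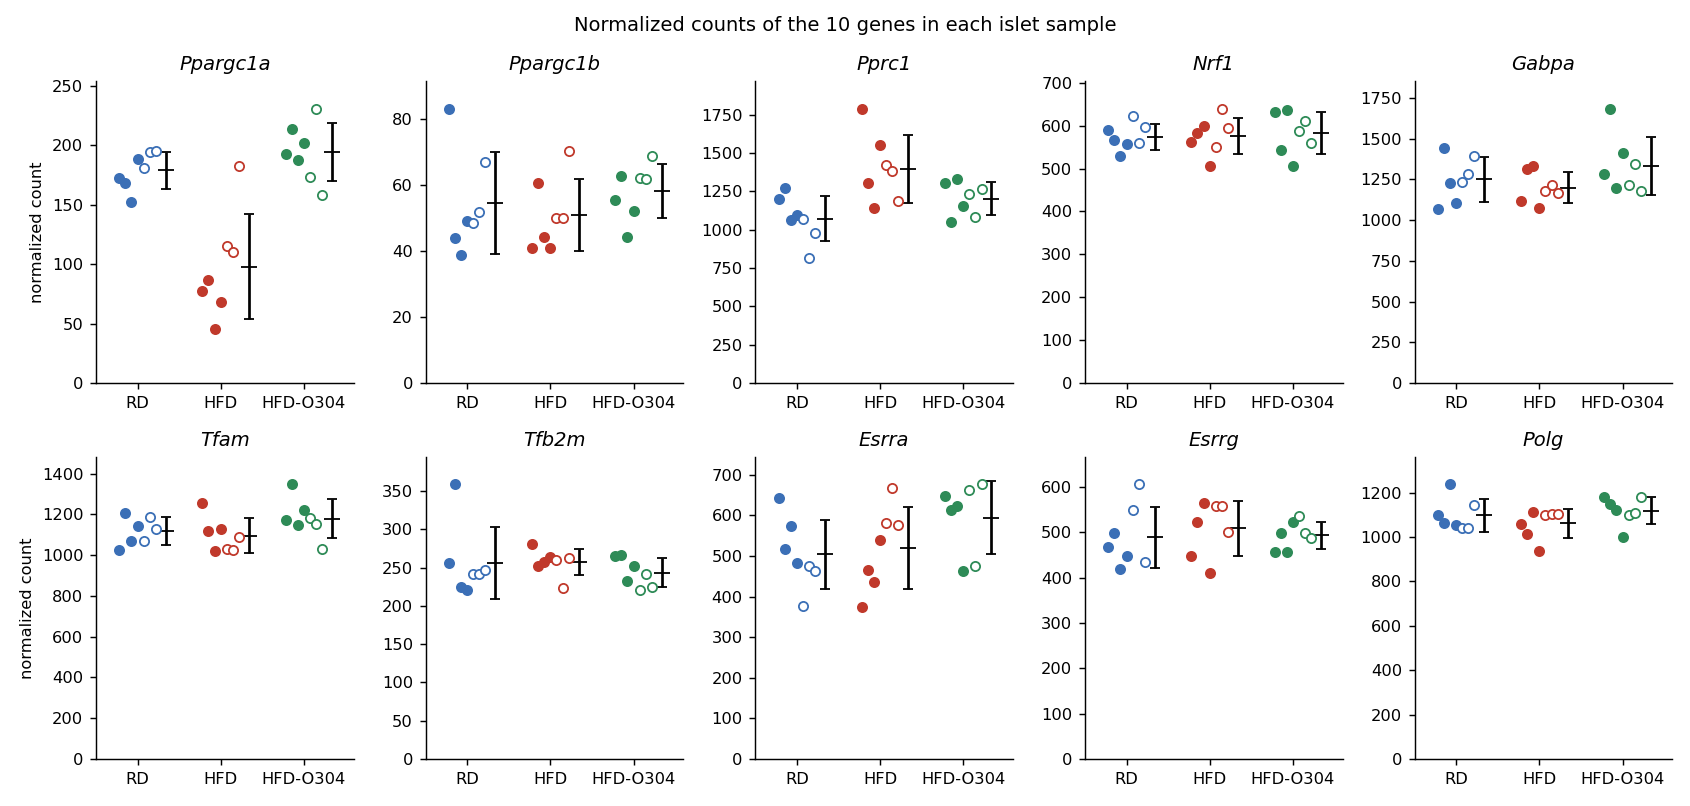
Normalized counts (y axis, each panel from 0) of the 10 genes in every islet sample of RD, HFD and HFD-O304, with filled points for replicates 1 to 4, open points for replicates 5 to 7, and the bar giving the mean ± SD of 7 samples. Ppargc1a is at 115.2 or below in 6 of 7 HFD samples and at 152 or above in all RD and HFD-O304 samples. The groups of all 10 genes overlap, those of Ppargc1a through HFD replicate 7 (183) alone. For Pprc1 4 of 7 HFD samples lie above all RD and HFD-O304 samples.

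The estimated Ppargc1a difference was larger in replicates 1 to 4 than in replicates 5 to 7, though the change between sets was not called. Within replicates 1 to 4 the values of HFD (45.2 to 86.7) did not overlap those of RD (152 to 189) or of HFD-O304 (188 to 214). Such a gap was found in 9.56% of all genes for HFD against RD and in 15.8% for HFD-O304 against HFD, and among the 10 genes for Ppargc1a alone in both. The log2 difference within this set was -1.30 (SE 0.17, adjusted p = 0.0002) in HFD against RD and 1.51 (SE 0.17, adjusted p = 1.14e-05) in HFD-O304 against HFD, where 2.25% and 7.99% of all genes were called. Within replicates 5 to 7 the differences were -0.48 (SE 0.19, adjusted p = 0.151) and 0.47 (SE 0.19, adjusted p = 0.127), and 0 of the 10 genes were called against 1.25% and 5.95% of all genes. At an unadjusted p under 0.05, 3 and 1 of the 10 genes passed in that set, Ppargc1a among them both times. The share of all genes at this looser cutoff is not given, so no excess is read from these counts.

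Tested directly, the Ppargc1a difference between HFD and RD was 0.83 smaller in size in replicates 5 to 7 on the log2 scale (SE 0.26), with an unadjusted p from the quasi-likelihood fit of 0.00444 and an adjusted p of 0.659. For HFD-O304 against HFD the change between sets was -1.05 (SE 0.26, unadjusted p = 0.000506, adjusted p = 0.552). Across all genes 0 differed between sets at the threshold in any comparison, with 1862 and 1314 of the 27229 genes at an unadjusted p under 0.05 in the 2 comparisons. HFD replicate 7 weighed on the pooled values. Without it the log2 difference was -1.09 (adjusted p = 2.09e-05) in HFD against RD and 1.21 (adjusted p = 1.05e-06) in HFD-O304 against HFD. Without HFD replicate 4 the HFD against RD call was lost, at -0.79 (adjusted p = 0.0107). Without the HFD-O304 library whose label fields disagree, HFD-O304 against HFD stood at 0.98 (adjusted p = 0.00061).

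Markers of several cell types differed between the same groups as Ppargc1a. The 8 α-cell markers summed to 22491 to 29805 CPM among RD samples, 10952 to 18363 among HFD samples and 25746 to 33493 among HFD-O304 samples. In HFD against RD, 5 of the 8 were called lower and 2 higher, and in HFD-O304 against HFD 6 higher and 2 lower. These are 87.5% and 100%, beside 3.54% and 11.9% of all genes and 6.4% and 19.7% of those passing edgeR's filterByExpr, which removes weakly expressed genes. The marker counts that follow are also of called genes. The defining α-cell gene Gcg, which encodes glucagon, fell by 1.01 on the log2 scale in HFD, whereas Ttr and Gc, which stand on the same list, went the other way. Of the 6 δ-cell markers, 3 fell in HFD against RD and 5 rose in HFD-O304 against HFD. Of the 11 β-cell markers, Iapp rose and Slc2a2 and Slc30a8 fell in HFD against RD, and 3 rose and 3 fell in HFD-O304 against HFD. Of the 9 mesenchymal markers, Acta2 and Rgs5 rose by 0.91 and 0.49 in HFD against RD, and 5 fell in HFD-O304 against HFD, Acta2 by 1.73. Of the 8 proliferation genes, all 8 rose in HFD and all 8 fell in HFD-O304 against HFD. In these bulk samples fewer cells of a type and less RNA per cell cannot be told apart, and the part of these shifts in the Ppargc1a values was not tested.

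By edgeR, neither of the other PGC-1 coactivators was called in any comparison, whereas DESeq2 called Pprc1 in HFD against RD. Ppargc1b (PGC-1β), the closest relative of PGC-1α, ranged from 38.8 to 83.3 normalized counts in RD with a median of 49.1, from 41.0 to 70.4 in HFD with a median of 50.1, and from 44.2 to 68.8 in HFD-O304 with a median of 61.9. The groups overlapped throughout, and the log2 difference was -0.09 (interval -0.43 to 0.26) in HFD against RD and 0.18 (interval -0.17 to 0.52) in HFD-O304 against HFD. At 24 to 89 read pairs per library, Ppargc1b had the widest intervals of the 10 genes after Ppargc1a, and a difference of the size seen for Ppargc1a lay outside both of them.

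Pprc1 (PRC), a coactivator of NRF1 known as an early response gene of growth stimulation, went opposite to Ppargc1a in sign. Its normalized counts ranged from 818 to 1270 in RD with a median of 1070, from 1139 to 1789 in HFD with a median of 1380, and from 1050 to 1328 in HFD-O304 with a median of 1235. Of the 7 HFD samples 4, from 1380 to 1789, lay above every RD and HFD-O304 sample, and the other 3 overlapped with them. The log2 difference in HFD against RD was 0.38 (SE 0.092), a fold of 1.30 with an interval of 1.14 to 1.48, and its adjusted p of 0.0105 missed the threshold narrowly. It passed in 8 of the 12 alternative settings, including DESeq2. Within replicates 5 to 7 the HFD samples (1185 to 1423) lay above the RD samples (818 to 1070) without overlap. A gap of this kind was found in 23% of all genes in that set, and Pprc1 was not called there. In HFD-O304 against HFD the difference was -0.21 (interval -0.40 to -0.02, adjusted p = 0.128) and in HFD-O304 against RD 0.17 (interval -0.02 to 0.36, adjusted p = 0.423). Pprc1 shares 177 exon bases, 2.82% of its own, with Ldb1 on the opposite strand, and the counts used the strand.

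**Figure D2:**
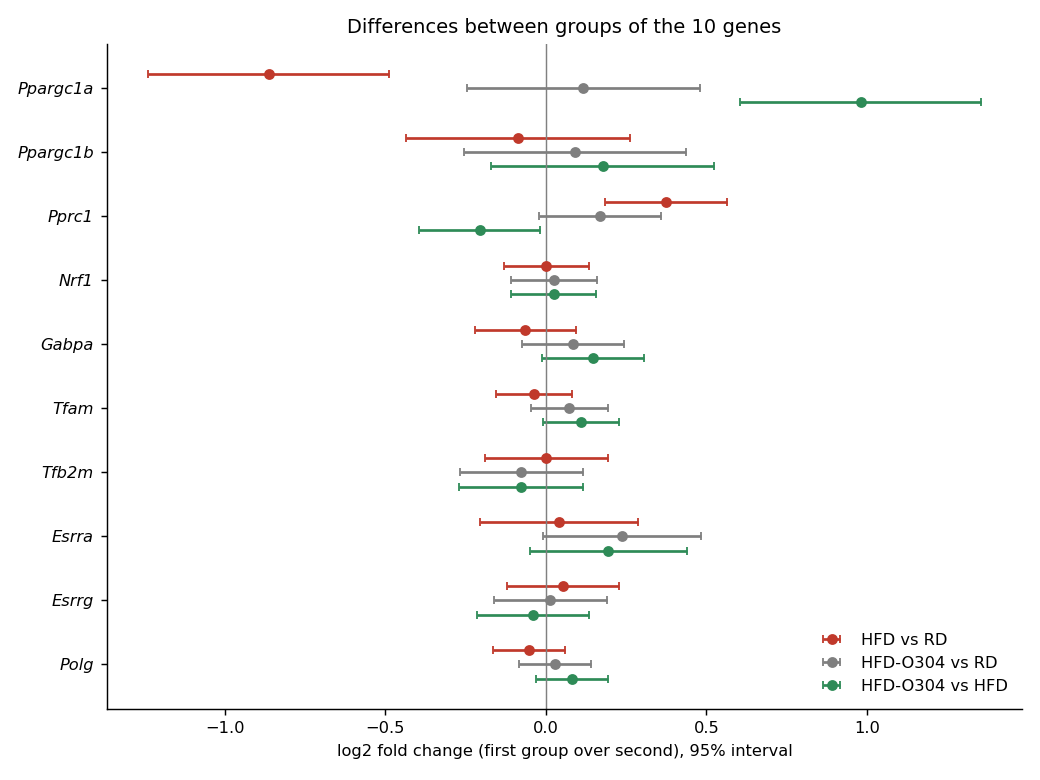
Log2 fold changes (x axis) of the 10 genes in the 3 comparisons, with the point as the estimate of the quasi-likelihood fit and the bar as its 95% interval. The intervals of Ppargc1a in HFD vs RD (-1.24 to -0.49) and HFD-O304 vs HFD (0.61 to 1.35) stand apart from 0, and those of Pprc1 lie on the opposite sides of 0, nearer to it.

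Of the 4 transcription factors Nrf1, Gabpa, Esrra and Esrrg, on which PGC-1 coactivators dock, 0 were called by edgeR or DESeq2 in any comparison, and 0 had an unadjusted p under 0.05. Nrf1 gave normalized counts of 574 ± 30.6 in RD islets, 576 ± 42.6 in HFD islets and 582 ± 48.4 in HFD-O304 islets. Its log2 differences of 0.00 (interval -0.13 to 0.13) in HFD against RD and 0.02 (interval -0.11 to 0.16) in HFD-O304 against HFD were among the most tightly bounded of the 10 genes. Gabpa gave 1251 ± 139 in RD islets, 1200 ± 96 in HFD islets and 1330 ± 177 in HFD-O304 islets, where replicate 2, the shallowest library, was highest at 1685. Its log2 difference was -0.06 (interval -0.22 to 0.10) in HFD against RD and 0.15 (interval -0.01 to 0.31, adjusted p = 0.208) in HFD-O304 against HFD. Within replicates 5 to 7 its HFD samples (1167 to 1218) lay below the RD samples (1235 to 1396) without overlap. Such a gap was found in 23% of all genes in that set, and Gabpa was not called there. Gabpa shares 397 exon bases with Atp5j, a subunit gene of ATP synthase on the opposite strand.

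Of the estrogen-related receptors, Esrrg (ERRγ), which marks the maturation of β-cell oxidative metabolism, gave normalized counts of 489 ± 67.6 in RD islets, 508 ± 60.3 in HFD islets and 494 ± 30.2 in HFD-O304 islets. Its log2 difference was 0.05 (interval -0.12 to 0.23) in HFD against RD and -0.04 (interval -0.21 to 0.13) in HFD-O304 against HFD. Esrra (ERRα), a target as well as a partner of PGC-1α, gave 504 ± 84.8, 520 ± 100 and 595 ± 88.9 normalized counts in the same order. Its pooled difference was 0.04 (interval -0.20 to 0.29, adjusted p = 0.9) in HFD against RD, and the largest, 0.24 in HFD-O304 against RD, had an interval of -0.01 to 0.48 (adjusted p = 0.375).

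The pooled Esrra value joined library sets of opposite sign. In replicates 1 to 4 RD samples were at 642, 517, 574 and 483 and HFD samples at 374, 465, 436 and 539. In replicates 5 to 7 RD samples were at 376, 476 and 463 and HFD samples at 581, 668 and 575. HFD thus tended to lie below RD in the first set, with overlap, and lay above it in the second with none. Within those 6 libraries 3 of the 10 genes, Pprc1, Gabpa and Esrra, showed such a gap, beside 23% of all genes. The log2 difference was -0.29 (SE 0.13, adjusted p = 0.269) in the first set and 0.47 (SE 0.13, adjusted p = 0.0413) in the second, neither past the threshold. The change between sets was 0.77 (SE 0.20, unadjusted p from the same fit = 0.000723, adjusted p = 0.452). Esrra overlaps Mir6990 on its own strand over 91 bases and Trmt112 on the opposite strand over 73.

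**Figure D3:**
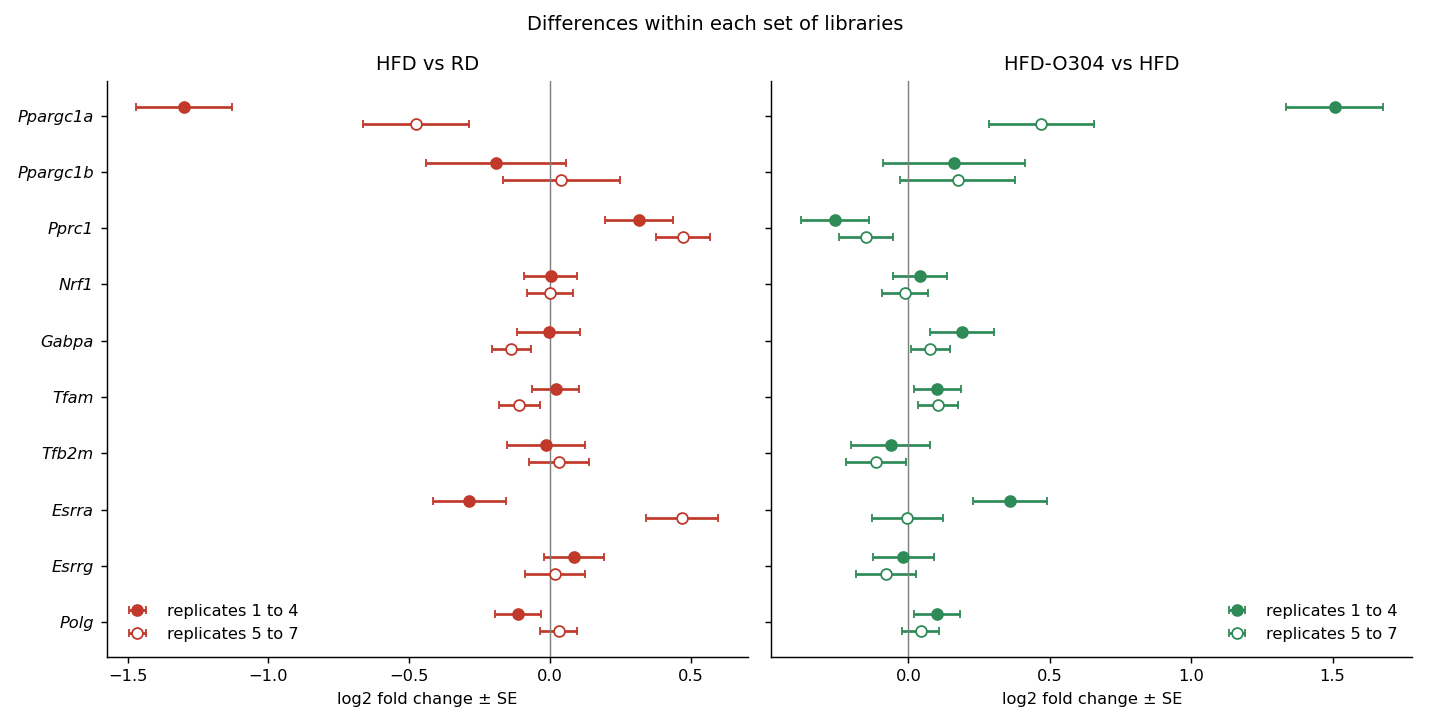
Log2 fold changes ± SE (x axis) of the 10 genes within replicates 1 to 4 (filled) and replicates 5 to 7 (open), for HFD vs RD and HFD-O304 vs HFD. Ppargc1a keeps its sign in both sets with a smaller size in the second (-1.30 and -0.48; 1.51 and 0.47), and Esrra changes sign between sets in HFD vs RD (-0.29 and 0.47).

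Of the 3 genes that serve mitochondrial DNA itself, 0 were called by edgeR or DESeq2, and 0 had an unadjusted p under 0.05. Tfam gave normalized counts of 1119 ± 68.3 in RD islets, 1095 ± 84.5 in HFD islets and 1179 ± 95.6 in HFD-O304 islets. Its log2 difference was -0.04 (interval -0.16 to 0.08) in HFD against RD and 0.11 (interval -0.01 to 0.23, adjusted p = 0.214) in HFD-O304 against HFD. Tfb2m, which melts the promoter with the mitochondrial RNA polymerase, gave 256 ± 47.1, 257 ± 17.1 and 243 ± 18.8 normalized counts. The wide RD spread came from replicate 2 at 359, with the other 6 RD samples between 221 and 256. Polg, the catalytic subunit of the mitochondrial DNA polymerase, gave 1097 ± 72.5, 1061 ± 63.9 and 1119 ± 62.2 normalized counts, with intervals of -0.16 to 0.06 in HFD against RD and -0.03 to 0.19 in HFD-O304 against HFD. Polg shares 921 exon bases with Fanci on the opposite strand.

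Over the 8 genes other than Ppargc1a and Pprc1, log2 differences ran from -0.09 to 0.05 in HFD against RD, from -0.08 to 0.24 in HFD-O304 against RD and from -0.08 to 0.20 in HFD-O304 against HFD. Their 95% intervals reached from -0.43 to 0.29 in the first comparison and from -0.27 to 0.52 in the last, so a halving or doubling of any of the 8 lay outside them. The median over all 10 genes was -0.02, 0.08 and 0.10 in the 3 comparisons, beside -0.00, 0.01 and 0.03 over all genes tested. Across the 21 samples, log2 CPM of Ppargc1a correlated with that of Ppargc1b at r = 0.45 and of Pprc1 at r = -0.53, and the other 7 genes lay between r = -0.14 and 0.35. These are descriptions over samples that share diets and library sets. With group means removed the values were 0.44 for Ppargc1b and -0.20 for Pprc1.

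A set of 225 tested genes around these regulators, in 10 lists, was then examined for the wider network. Of these, 14 were called in HFD against RD (6 higher and 8 lower), 5 in HFD-O304 against RD (3 higher and 2 lower) and 37 in HFD-O304 against HFD (24 higher and 13 lower). These shares of 6.22%, 2.22% and 16.4% stand beside 3.54%, 1.31% and 11.9% of all genes. With weakly expressed genes removed by edgeR's filterByExpr they were 7.04%, 2.35% and 18.8% of 213 genes beside 6.4%, 2.21% and 19.7% of all 17788, so the shares were close to those of expressed genes. The median log2 difference of the 225 genes was 0.00, 0.02 and 0.01.

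Of the 28 factors that control or modify PGC-1, 3 were called lower and 0 higher in HFD against RD. In HFD-O304 against HFD 9 were called higher and 1 lower. These shares of 10.7% and 35.7% stand beside 3.54% and 11.9% of all genes, and 6.4% and 19.7% of those passing filterByExpr. The median log2 difference of the 28 was -0.12 and 0.17, beside -0.00 and 0.03 over all genes. Sirt1, the NAD-dependent deacetylase that acts on PGC-1α, fell by 0.29 in HFD (SE 0.068, adjusted p = 0.00708) and rose by 0.45 in HFD-O304 against HFD (SE 0.068), from 542 ± 51.0 to 740 ± 73.6 normalized counts. Nampt, which makes the NAD precursor that sirtuins depend on, rose by 0.38, and its HFD against RD difference of -0.23 missed the threshold (adjusted p = 0.0404). Crtc2, the CREB coactivator that turns on Ppargc1a in liver, rose by 0.37, and Ncoa1, a p160 coactivator, by 0.38, both in HFD-O304 against HFD. Camk4, a calcium-dependent kinase upstream of CREB, fell by 0.72 in HFD and the corepressor Ncor1 by 0.24. Camk4 and Ncor1 were named after their values were seen, to complete the 3 that fell with Sirt1.

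Of the 23 receptors and factors that PGC-1 proteins bind, 1 was called higher and 1 lower in HFD against RD. In HFD-O304 against HFD 3 were called higher and 3 lower. These are 8.70% and 26.1%, beside 3.54% and 11.9% of all genes and 6.4% and 19.7% of those passing filterByExpr. Esrrb, the third estrogen-related receptor, was low throughout with normalized counts of 7.97 ± 5.26 in RD islets, 23.5 ± 5.19 in HFD islets and 3.07 ± 2.53 in HFD-O304 islets. It rose by 1.52 in HFD (SE 0.35, adjusted p = 0.00674) and fell by 2.81 in HFD-O304 against HFD (SE 0.40), so this receptor moved where Esrra and Esrrg were not called. Thra, a thyroid hormone receptor, rose by 0.67 and Nfe2l2, the master regulator of antioxidant genes, by 0.36 in HFD-O304 against HFD, while Mef2c, a calcium-responsive factor, fell by 0.40. Nfe2l2 was also higher in HFD-O304 than in RD, by 0.25 (adjusted p = 0.00871).

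**Figure D4:**
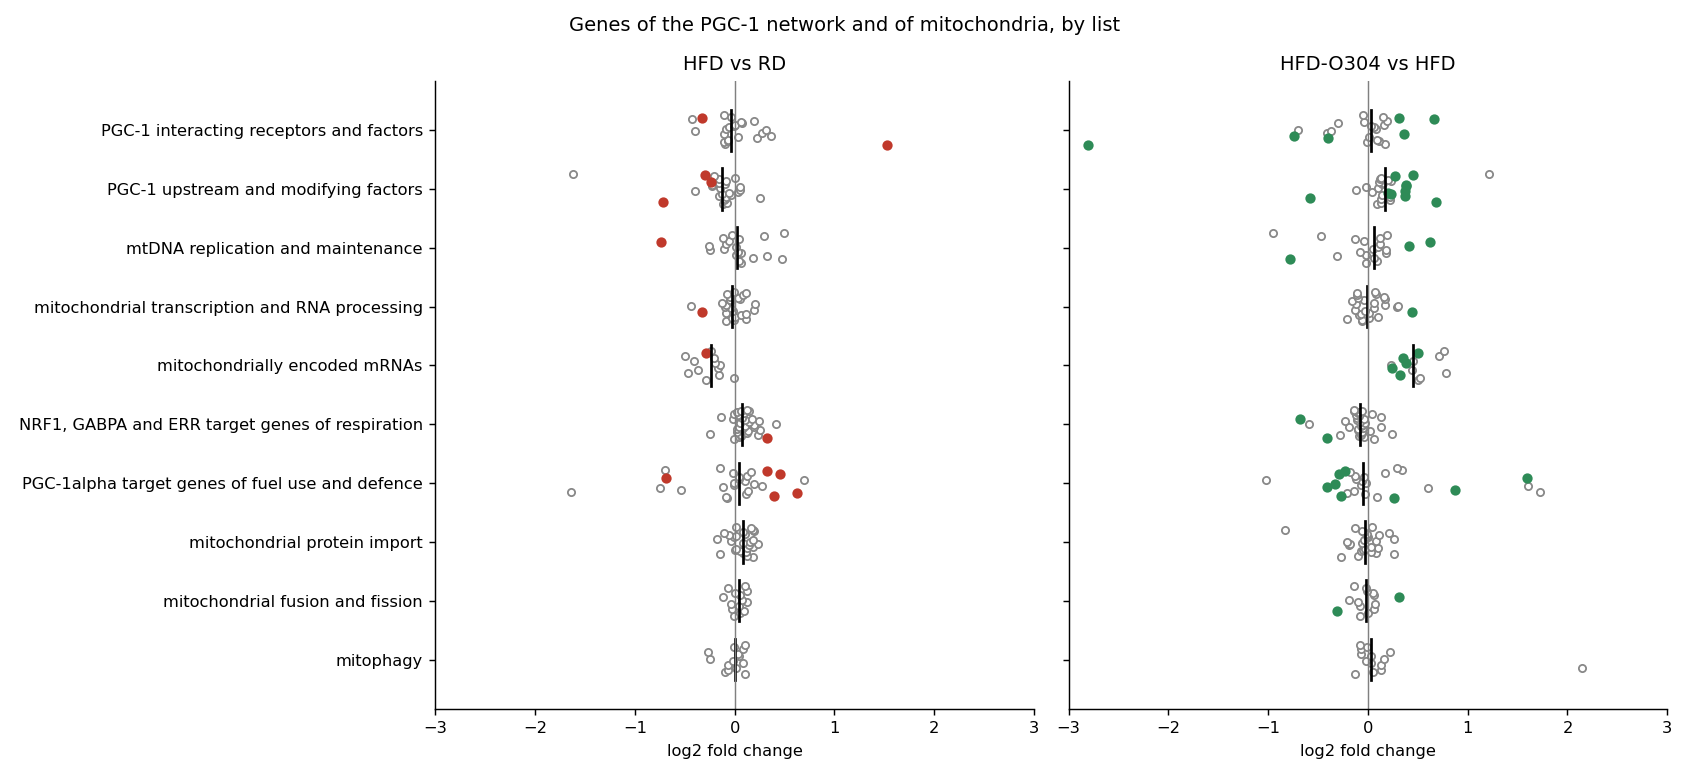
Log2 fold changes (x axis) of the genes of 10 lists around PGC-1 and mitochondria in HFD vs RD and HFD-O304 vs HFD, with 1 point per gene, filled where the adjusted p is under 0.01, and a bar at each list's median. The 13 mitochondrially encoded mRNAs all lie below 0 on the left and above 0 on the right, with medians of -0.23 and 0.45. The widest values are those of 7 with few counted read pairs. The 6 abundant ones have medians of -0.18 and 0.34.

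The 13 mRNAs encoded by mitochondrial DNA lay on 1 side of 0 in each comparison. Called were 1 lower in HFD against RD and 5 higher in HFD-O304 against HFD. These are 7.69% and 38.5%, beside 3.54% and 11.9% of all genes and 6.4% and 19.7% of those passing filterByExpr. The log2 differences of the 13 ranged from -0.50 to -0.01 in HFD against RD and from 0.23 to 0.79 in HFD-O304 against HFD. The ends of both ranges other than 0.23 came from 7 mRNAs at 1.43 to 275 normalized counts on average. The other 6 (mt-Nd1, mt-Nd2, mt-Nd4, mt-Nd5, mt-Co1 and mt-Cytb), at 50956 to 257623 on average, held all the edgeR calls and ranged from -0.29 to -0.14 and from 0.23 to 0.50. mt-Nd5, a complex I subunit, fell by 0.29 in HFD (SE 0.055, adjusted p = 0.00133) and rose by 0.50 in HFD-O304 against HFD (SE 0.056). mt-Nd4 rose by 0.35, mt-Co1 by 0.32 and mt-Nd2 by 0.38 in the latter. These mRNAs are cut from shared precursors and so are not independent of each other. Together the 13 made up 1.97% ± 0.101 of read pairs on genes in RD islets, 1.67% ± 0.159 in HFD islets and 2.25% ± 0.187 in HFD-O304 islets. Nearly all of this came from the 6 with high counts. HFD and HFD-O304 samples met at 1.92%, and RD samples lay from 1.78% to 2.09%. Pairs that mapped to several places, 7.28% to 9.03% of all pairs per library, were left out of the counts. How far this lowered the counts of the 7 was not tested.

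Nuclear genes of respiration, known targets of NRF1, GABP and ERR, mostly lay on the other side. The list also holds the heme synthesis gene Alas1. Of 34 tested, 29 had a log2 difference above 0 in HFD against RD and 28 had one below 0 in HFD-O304 against HFD. The medians of 0.08 and -0.08 were small, beside -0.00 and 0.03 over all genes. Both comparisons share the HFD samples, so opposite signs in them are not independent. In HFD-O304 against RD 16 were above 0 and 18 below. By edgeR 1 and 2 of them were called in HFD against RD and HFD-O304 against HFD. These are 2.94% and 5.88%, beside 3.54% and 11.9% of all genes and 6.4% and 19.7% of those passing filterByExpr. The 1 call in HFD against RD was Alas1, the first enzyme of heme synthesis. It rose by 0.32 in HFD (SE 0.055, adjusted p = 0.000544) and fell by 0.41 in HFD-O304 against HFD (SE 0.055).

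A list of 26 genes of fuel use and antioxidant defence that PGC-1α is known to induce in other tissues was also examined. In HFD against RD 4 were called higher and 1 lower, and in HFD-O304 against HFD 3 higher and 5 lower. These are 19.2% and 30.8%, beside 3.54% and 11.9% of all genes and 6.4% and 19.7% of those passing filterByExpr. Pdk4, the kinase that shuts off pyruvate dehydrogenase, followed the order of Ppargc1a, with normalized counts of 680 ± 162 in RD islets, 425 ± 110.9 in HFD islets and 1274 ± 162 in HFD-O304 islets. It fell by 0.69 in HFD (SE 0.15, adjusted p = 0.00448), rose by 1.59 in HFD-O304 against HFD (SE 0.15), and was higher in HFD-O304 than in RD by 0.91 (adjusted p = 0.000401). Fbp1, of gluconeogenesis, rose by 0.87 in HFD-O304 against HFD. Cpt1a, the gate of fatty acid entry into mitochondria, and Slc25a20, the carnitine carrier, went the other way from Pdk4, rising by 0.63 and 0.45 in HFD. Cpt1a stayed higher in HFD-O304 than in RD, by 0.41 (adjusted p = 0.0016), whereas Slc25a20 fell by 0.30 in HFD-O304 against HFD.

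The remaining lists cover mitochondrial DNA, its transcripts and the upkeep of the organelle. Of 20 genes for copying and maintaining mitochondrial DNA, 1 was called in HFD against RD and 3 in HFD-O304 against HFD. That is 5% and 15%, beside 3.54% and 11.9% of all genes and 6.4% and 19.7% of those passing filterByExpr. Slc25a33, a pyrimidine nucleotide carrier, fell by 0.74 in HFD and rose by 0.62 in HFD-O304 against HFD. Rrm2b, a ribonucleotide reductase subunit that supplies nucleotides to resting cells, rose by 0.41, and Dna2, a nuclease and helicase, fell by 0.78 in HFD-O304 against HFD. Of 26 genes for mitochondrial transcription and RNA processing, edgeR called Lrpprc alone and DESeq2 called 2 in each of these comparisons. The edgeR share was 3.85% in both, beside 3.54% and 11.9% of all genes and 6.4% and 19.7% of those passing filterByExpr. Lrpprc fell by 0.33 in HFD (SE 0.065, adjusted p = 0.00187) and rose by 0.44 in HFD-O304 against HFD (SE 0.065). Lrpprc keeps mitochondrial mRNAs stable. Among the 14 fusion and fission genes, 0 were called in HFD against RD by either tool, with 1 at an unadjusted p under 0.05. In HFD-O304 against HFD Gdap1 fell by 0.31 and Mtfp1 rose by 0.31. These 2 calls are 14.3%, beside 11.9% of all genes and 19.7% of those passing filterByExpr. Of the 14 mitophagy genes, 0 were called by edgeR or DESeq2 in any of the 3 comparisons, with 2, 0 and 3 at an unadjusted p under 0.05 in HFD against RD, HFD-O304 against RD and HFD-O304 against HFD. Of the 27 protein import genes, edgeR called 0 in each, DESeq2 called 1, 0 and 1, and 3, 2 and 5 had an unadjusted p under 0.05. Over all 27229 genes DESeq2 called 1758, 727 and 4045 in the same order. The share of all genes at an unadjusted p under 0.05 is not given, so no excess is read from those counts.

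Likeness to Ppargc1a was measured as the Pearson correlation of log2 CPM over the 21 samples among the 13216 genes averaging 50 or more normalized counts. The highest values were those of 1500015A07Rik (r = 0.956), Hpgds (0.954), a prostaglandin D synthase, Cntnap2 (0.944), a neurexin-family adhesion protein, Gap43 (0.935), a growth-cone protein, and Lrpprc (0.931). The lowest were those of Gpx3 (-0.921), a secreted glutathione peroxidase, Chgb (-0.911), a secretory granule protein, Gsto2 (-0.905), a glutathione transferase, Tkfc (-0.905), a triose kinase, and Frem2 (-0.901), a matrix protein. With group means removed, the 5 highest genes stood at 0.812 to 0.887 and the 5 lowest at -0.777 to -0.725. HFD means of normalized counts were 79.4 for Gap43, against 162 in RD and 160 in HFD-O304, and 413 for Gsto2, against 118.3 and 112.7. These genes were picked for their correlation, and the samples share diet groups and library sets.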

How the data were processed

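RNA-seq of mouse islets was analysed from the gene counts that the authors deposited for 21 samples (RD, HFD and HFD-O304, 7 each, grouped by the labels). Per the labels and the study's methods, 50-nt paired reads were checked with FastQC, aligned to GRCm38 (Ensembl 96) with STAR and counted per gene; the deposited counts were not normalized. The count column of the used strand was taken, since it held 28.8 to 36.3 times the pairs of the other strand. Read pairs on no gene made up 2.97% to 5.12% and those mapping to several places 7.28% to 9.03%, and both were left out. Genes with at least 10 reads in all (27229 of 55536) were tested with edgeR 4.0.16 (TMM, quasi-likelihood, 3 groups in 1 fit, adjusted p under 0.01) in R 4.3.3. Normalized counts are counts divided by DESeq2 1.42.0 size factors. Intervals are 95%. Log2 CPM used a prior count of 2. The fit was tested on simulated data.

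The 10 genes, the other lists and the marker lists were chosen with earlier results of these data known. Of each list the up to 4 genes with the smallest adjusted p among those called, and the 5 genes most and least like Ppargc1a, were named. Some genes that fall under this rule or on the marker lists are counted but not reported by name here. 1 listed gene (Atp5o) was not matched. Separate pools are taken from the methods; where they share a cage or day, p-values measure the spread between these samples only. Alternatives covered DESeq2, RLE and upper quartile factors, the low-count filter, unstranded counts, 2 groups per fit, the replicate block, the library set, each set alone, the acinar level, a threshold of 0.05 and each sample left out. Exon positions were those of GENCODE M21, the annotation of Ensembl 96. The depth bounds only counting error.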

Additional observations from a re-analysis of the deposited data

Results flagged for a closer look

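Among the 30 sets of 7 samples examined (10 genes in 3 groups), 1 held a sample far from the rest by Dixon's criterion, where chance gives about 1 in 20. Tfb2m in RD replicate 2 was at 358.8 normalized counts, the next highest RD sample being at 256, a gap of 0.744 of the whole range, past the limit for 7 samples. Without this library the Tfb2m difference in HFD against RD remained uncalled.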

How the results depend on the processing

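In HFD against RD, 1 of the 10 genes was called (Ppargc1a). The count was 2, with Pprc1 added, under RLE size factors, no filter on low counts, filterByExpr, unstranded counts, the replicate block, the library set or the acinar level as a covariate, DESeq2 and a threshold of 0.05, and 0 with only the 2 groups compared or only replicates 5 to 7. With 1 sample left out it ranged from 0 (without HFD replicate 4) to 2 (without RD replicate 2, HFD replicate 3 or HFD replicate 7). In HFD-O304 against HFD the count was 0 in replicates 5 to 7 and 1 in every other setting run, and in HFD-O304 against RD it was 0 in all of them. Ppargc1a in HFD against RD was no longer called at -0.86 with only the 2 groups compared (adjusted p = 0.014) and at -0.48 in replicates 5 to 7, and ranged from -1.09 to -0.74 with 1 sample left out. In HFD-O304 against HFD it was 0.47 and not called in replicates 5 to 7. In HFD-O304 against RD it was -0.0070 there in place of 0.12. The cause of these differences was not tested.

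Values near 0 changed sign under some settings, and for the 8 genes other than Ppargc1a and Pprc1 0 of 792 alternative values were called (lowest adjusted p = 0.0413). In HFD against RD, upper quartile factors gave -0.0068 for Nrf1 and -0.0027 for Tfb2m, replicates 1 to 4 alone gave 0.020 for Tfam, -0.014 for Tfb2m and -0.29 for Esrra, and replicates 5 to 7 alone gave 0.040 for Ppargc1b and 0.031 for Polg. In HFD-O304 against RD, replicates 1 to 4 gave -0.030 for Ppargc1b and -0.014 for Polg, and replicates 5 to 7 gave -0.0089 for Nrf1, -0.060 for Gabpa, -0.0042 for Tfam and -0.060 for Esrrg. In HFD-O304 against HFD, replicates 5 to 7 gave -0.011 for Nrf1 and -0.0035 for Esrra. With 1 sample left out, HFD against RD ranged from -0.18 to 0.045 for Ppargc1b, -0.026 to 0.028 for Nrf1, -0.025 to 0.11 for Tfb2m and -0.028 to 0.11 for Esrra. HFD-O304 against RD ranged from -0.10 to 0.040 for Tfb2m and -0.013 to 0.073 for Esrrg, and HFD-O304 against HFD from -0.010 to 0.057 for Nrf1.

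Counts over all genes moved more. HFD against RD gave 963 genes in the reported fit, 1758 with DESeq2, 1577 with the replicate block, 1611 with the library set as a covariate, 2148 at a threshold of 0.05, 627 with only the 2 groups compared, 563 in replicates 1 to 4, 307 in replicates 5 to 7, 1594 without HFD replicate 7, 599 without HFD replicate 4 and 589 without RD replicate 7. HFD-O304 against RD gave 356 genes, and 727, 543, 543, 785, 483, 85 and 228 in the same settings up to replicates 5 to 7, with 221 to 423 on leaving 1 sample out. It was 221 without RD replicate 3, 225 without HFD-O304 replicate 5 and 235 without HFD-O304 replicate 1. HFD-O304 against HFD gave 3230 genes, 5150 at a threshold of 0.05, 2001 in replicates 1 to 4 and 1456 in replicates 5 to 7.

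The labels give the groups the same replicate numbers, but the numbers were not taken to pair the samples. Deviations of same-numbered samples from their group means correlated at over 0.1 in 15 of 21 pairs (mean 0.21 over 13216 genes). With the replicate block, Nrf1 in HFD against RD was -0.00084 in place of 0.0013, and Pprc1 became a call, the other calls standing. Depth limits Ppargc1b most, at 24 read pairs in the library where it was lowest.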
